A study of Mus musculus with 2 samples.

Results

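Prostaglandins are lipid mediators made from arachidonate, a fatty acid that phospholipase A2 enzymes cut out of membrane phospholipids. Cyclooxygenases turn arachidonate into prostaglandin H2, and terminal synthases convert that intermediate into prostaglandin E2, prostacyclin and the other prostanoids. These leave the cell, bind G protein-coupled receptors on the same or neighbouring cells, and are broken down after uptake. Fibroblasts are a known source of prostaglandin E2 and prostacyclin in inflamed tissue, where the inducible cyclooxygenase is switched on together with chemokines and cytokines.

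The group described here holds 10 listed genes of this pathway, which are Pla2g4a for arachidonate release, Ptgs1, Ptgs2, Ptges, Ptges2 and Ptgis for synthesis, and Ptger1, Ptger2, Ptger4 and Ptgfr for reception. On the array 9 of the 10 had a probe set annotated to that gene only, as did 19946 genes in all, and Ptgs1, the constitutive cyclooxygenase, was not analysed here. The members were chosen by their place in the pathway with the celastrol minus DMSO values of these arrays known, so their differences are given as a description and carry no test. All cells were mouse embryonic fibroblasts that had received an adenovirus carrying LacZ, in DMEM with 1% serum. One culture got the solvent DMSO and the other 250 nM celastrol, a plant triterpenoid known to act on chaperones and inflammatory signalling, each for 7 h. RNA from each was read on 1 array, so values have no replicate error, and culture, array and compound cannot be told apart. The labels used here give no mouse strain, embryo age or number of embryos.

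Values are RMA values on the log2 scale as deposited by the authors, and a difference is celastrol minus DMSO on that scale. Both arrays had near equal medians over 35556 probe sets, 6.33 with DMSO and 6.35 with celastrol. Genes above 5.73 in either array were taken as detected, and 13902 were. This limit is the 95th percentile over 1210 olfactory and vomeronasal receptor probe sets, read as background. The detected genes had a median difference of -0.01. The central 95% of detected genes differed by -0.71 to 0.91, and that of the dim receptor probe sets by -0.42 to 0.41. Of 14 fibroblast markers 12 were detected, among them Vim (13.85 with DMSO and 13.95 with celastrol), Fn1 (13.42 and 13.47) and Col1a1 (12.16 and 11.69). Lum and Fap were below the limit in both arrays. Of the 12, 3 were higher and 9 lower, beside 48.1% and 51.9% of all detected genes, with a median of -0.20. The lower ones included S100a4 (-0.88) and Postn (-0.61). The summed linear level of all 14 was 46336 with DMSO and 42699 with celastrol.

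The prostaglandin genes did not differ in one direction. The genes for the first 2 steps, Pla2g4a and Ptgs2, were higher with celastrol, while the prostaglandin E synthase gene Ptges, the prostacyclin synthase gene Ptgis and the prostaglandin F receptor gene Ptgfr were lower. Of the 9 measured members 8 were detected, 4 with a higher and 4 with a lower value, beside 48.1% of all detected genes above 0 and 51.9% below. This split was near that of all detected genes, so it is no trait of the pathway. Ptges2, Ptger1 and Ptger4 differed by less than 0.21, the SD of the differences of the olfactory and vomeronasal receptor probe sets. None of the 8 was 2-fold higher, where 1.88% of all detected genes were, and none was 2-fold lower, where 0.662% were. At 1.5-fold, 2 of the 8 were higher beside 6.19% of all detected genes, and 0 were lower beside 4.68%. The median of the 8 differences was -0.03 on the log2 scale, close to that of all detected genes.

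**Figure D1:**
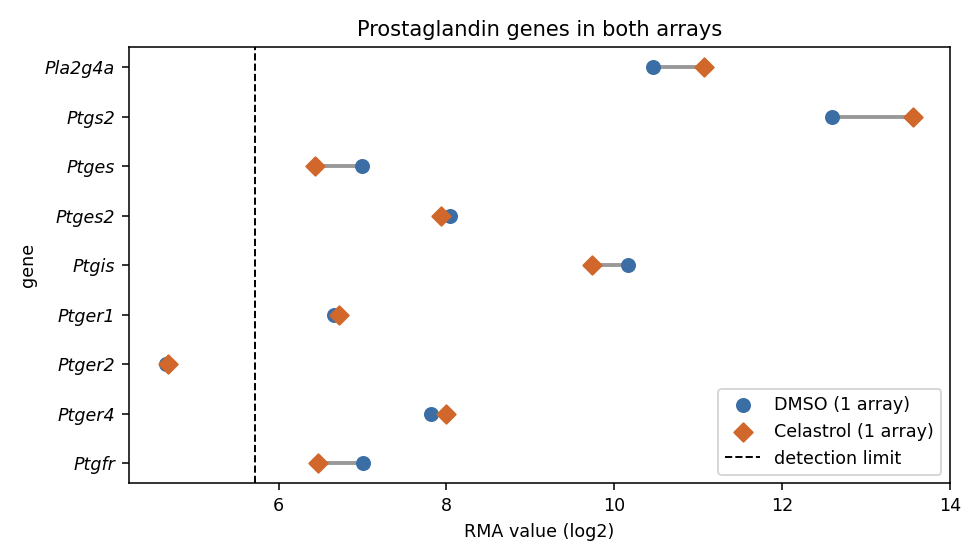
RMA values (log2, horizontal axis) of the 9 measured prostaglandin genes (vertical axis) in the DMSO array (circles) and the celastrol array (diamonds), 1 array each, with the detection limit of 5.73 as a dashed line. Ptgs2 and Pla2g4a lie to the right with celastrol, Ptges, Ptgis and Ptgfr to the left, and Ptger2 lies below the limit in both arrays. Levels may be compared within a gene only.

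Ptgs2 encodes the inducible cyclooxygenase, the enzyme inhibited by many anti-inflammatory drugs. Its probe set (10350516) had a value of 12.59 with DMSO and 13.56 with celastrol, 0.96 higher on the log2 scale or 1.95-fold. The DMSO value was already far above the detection limit, so the transcript was plainly present without the compound. Of all detected genes 2.11% had a larger difference. Among the 125 detected genes whose mean value lay within 0.5 of that of Ptgs2, the central 95% of differences ran from -0.60 to 1.07, and 3.20% exceeded that of Ptgs2. The highest value on either array was 14.5, and saturation of bright probes was not examined because scanner files were not used here.

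Pla2g4a encodes cytosolic phospholipase A2 alpha, which supplies arachidonate to the cyclooxygenases. It stood at 10.46 with DMSO and 11.08 with celastrol, a difference of 0.62 or 1.53-fold, and 5.60% of all detected genes had a larger one. Pla2g4a and Ptgs2 are neighbours on chromosome 1. In the RefSeq gene table for GRCm38.p6 no other protein-coding gene lies between them, and a pseudogene and the non-coding RNA gene Ptgs2os, which do, had no probe set of their own. The next protein-coding gene beyond Ptgs2 is Pdc, a phototransduction gene, which was below the limit in both arrays (4.64 and 4.64).

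Ptges encodes the inducible microsomal prostaglandin E synthase, which is often induced together with Ptgs2 and works in series with it. Its value was 6.99 with DMSO and 6.44 with celastrol, a difference of -0.55, which is 1.47-fold lower. Of all detected genes 5.40% had a smaller (more negative) difference. The celastrol value lay 0.71 above the detection limit, in a range where RMA tends to compress differences. The differences of Ptgs2 and Ptges thus lay 1.52 apart on the log2 scale, in opposite directions.

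The promoters of Ptgs2, Pla2g4a and Ptges are shown because these genes act in succession yet differed in direction. Each run gives the 250 bases before the annotated start, 5′ to 3′ on the gene's strand, from RefSeq (build GRCm38.p6), with matches to the searched motifs in capitals. The Ptgs2 stretch lies at chr1:150099781-150100030 on the plus strand, that of Pla2g4a at chr1:149961291-149961540 on the minus strand (the first of 2 annotated starts), and that of Ptges at chr2:30903298-30903547 on the minus strand. A further 30 bases just after the annotated Ptgs2 start, chr1:150100031-150100060, hold a cyclic AMP response element core that overlaps an E-box.
Ptgs2 before the start: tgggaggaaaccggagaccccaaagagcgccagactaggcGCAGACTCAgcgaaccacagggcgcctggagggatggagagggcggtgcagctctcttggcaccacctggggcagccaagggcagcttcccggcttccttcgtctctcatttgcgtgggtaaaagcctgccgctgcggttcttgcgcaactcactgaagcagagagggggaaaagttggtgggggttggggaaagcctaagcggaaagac
Ptgs2 after the start: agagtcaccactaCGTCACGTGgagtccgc
Pla2g4a before the start: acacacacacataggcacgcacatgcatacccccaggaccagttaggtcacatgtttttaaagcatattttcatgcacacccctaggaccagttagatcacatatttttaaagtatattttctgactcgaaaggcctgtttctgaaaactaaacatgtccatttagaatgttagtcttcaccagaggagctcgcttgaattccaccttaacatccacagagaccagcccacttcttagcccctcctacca
Ptges before the start: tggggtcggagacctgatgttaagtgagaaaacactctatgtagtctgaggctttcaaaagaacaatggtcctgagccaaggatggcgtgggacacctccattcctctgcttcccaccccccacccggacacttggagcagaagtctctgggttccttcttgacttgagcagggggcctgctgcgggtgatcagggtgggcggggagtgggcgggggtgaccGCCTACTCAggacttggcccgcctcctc

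Motifs were searched on both strands in the 300 bases from 250 before to 50 after the start, for 8 of the 10 members that the promoter table held. They were the cyclic AMP response element TGACGTCA and its core CGTCA, GGANNTNCC as part of the NF-kB consensus, the heat shock element GAANNTTC, the antioxidant response element core TGANNNNGC, the E-box CACGTG and the TATA box TATAAA. The Ptgs2 window held CGTCA (20.8% of 32851 promoters hold it), CACGTG (7.15%) overlapping it by 2 bases, and TGANNNNGC on the minus strand (41.3%). The Ptges window held TGANNNNGC alone, and the first Pla2g4a window held none of the motifs. GGANNTNCC, found in 14.96% of all promoters, matched in none of the members' windows. Matches and their absence describe these letters in these windows and not the binding of a factor. Bases further than 250 before the annotated start were not searched. Whether that start is the one used in these cells was not examined.

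The remaining synthases gave smaller differences. Ptgis, the prostacyclin synthase, stood at 10.17 with DMSO and 9.74 with celastrol, a difference of -0.43 or 1.35-fold lower. Of all detected genes 9.81% had a smaller difference. Ptgis lay inside the central 95% of all detected genes, as did every other detected member except Ptgs2. Among detected genes with a mean value within 0.5 of their own, Pla2g4a, Ptges and Ptgfr also lay inside the central 95%. Those ranges were -0.71 to 1.00, -0.62 to 0.69 and -0.62 to 0.69. Ptges2, a membrane-associated prostaglandin E synthase, stood at 8.05 and 7.93, a difference of -0.12. Ptges3 is no member, but its product serves as a cytosolic prostaglandin E synthase and as the HSP90 co-chaperone p23. It was higher at 0.50 (12.42 with DMSO and 12.91 with celastrol), and its other probe sets gave 0.45 and 0.54. Whether these probe sets also read near-identical copies of Ptges3 was not examined. The 3 prostaglandin E synthase genes therefore did not share a direction.

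Receptors differed little apart from Ptgfr. Ptgfr, the receptor of prostaglandin F2alpha, which signals through Gq and calcium, stood at 7.00 with DMSO and 6.47 with celastrol, a difference of -0.53 or 1.44-fold lower. Of all detected genes 5.98% had a smaller difference. Ptger4, a prostaglandin E2 receptor that raises cyclic AMP through Gs, stood at 7.81 and 8.00, a difference of 0.18. Ptger1, the prostaglandin E2 receptor linked to calcium, stood at 6.66 and 6.72, a difference of 0.06. Ptger2, the other Gs-coupled prostaglandin E2 receptor, was below the detection limit in both arrays (4.66 and 4.68), so no fold is given.

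**Figure D2:**
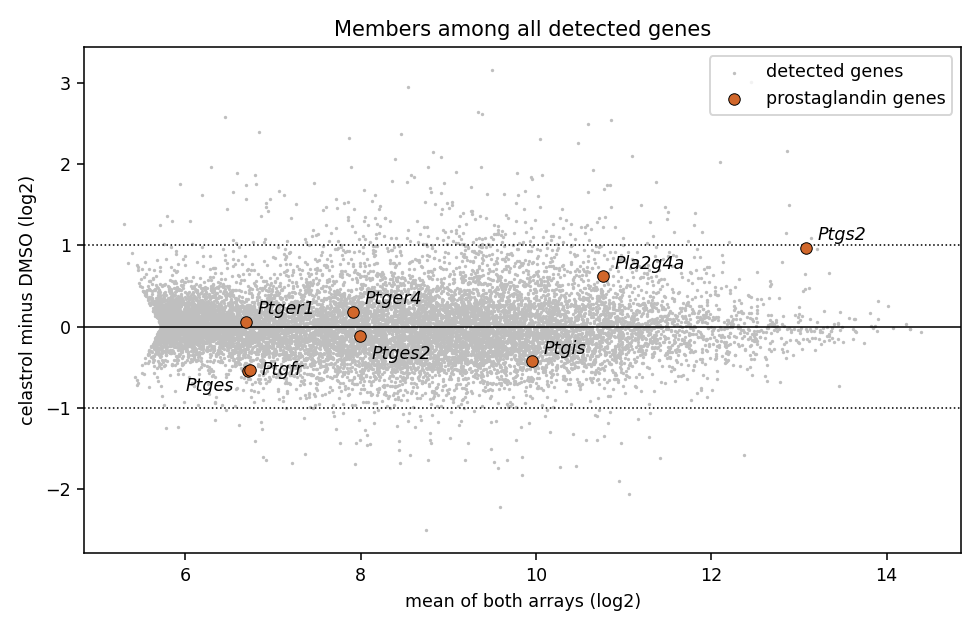
Difference (celastrol minus DMSO, log2, vertical axis) against the mean of both arrays (log2, horizontal axis) for 13902 detected genes (grey) and the 8 detected prostaglandin genes (orange), with dotted lines at 2-fold. Ptgs2 lies just inside the upper 2-fold line at a high mean value, and Ptges and Ptgfr nearly coincide at -0.55 and -0.53.

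A wider list of all 9 prostanoid receptors, which includes the members Ptger1, Ptger2, Ptger4 and Ptgfr, had no common direction either. Of its 7 detected genes 3 had higher and 4 lower values, near the 48.1% and 51.9% of all detected genes. None passed 1.5-fold, where 6.19% of all detected genes were higher and 4.68% lower, and the median difference was -0.01. Ptgdr, a prostaglandin D2 receptor, was detected with celastrol only (5.64 with DMSO and 5.98 with celastrol), at least 1.19-fold higher against the limit. Ptgir, the prostacyclin receptor, was detected with DMSO only (5.85 and 5.53), at least 1.09-fold lower with celastrol against the limit. Ptgdr2, the other prostaglandin D2 receptor, stood at 6.24 and 5.98, and Tbxa2r, the thromboxane receptor, at 6.66 and 6.65. Ptger3, the Gi-coupled prostaglandin E2 receptor, was below the limit (4.91 and 4.92). These levels are all near the limit, where a difference is poorly measured.

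The wider list of synthases had 10 measured genes of 12, of which 8 were detected, with a median of -0.19. Of the 8, 3 had higher and 5 lower values, beside 48.1% and 51.9% of all detected genes. Cbr1, a carbonyl reductase that can turn prostaglandin E2 into F2alpha, stood at 9.13 and 8.81, and Prxl2b, a prostamide and prostaglandin F synthase, at 6.13 and 5.87. Ptgds, the lipocalin-type prostaglandin D synthase, was just above the limit (5.95 and 6.14). Hpgds, the haematopoietic prostaglandin D synthase (5.05 and 5.18), and Tbxas1, thromboxane synthase (5.48 and 5.54), were below it in both arrays.

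Genes that export or inactivate prostaglandins included Abcc4 and Zadh2, whose differences exceeded that of every measured member. Abcc4, a transporter that carries prostaglandins out of the cell, stood at 9.12 with DMSO and 10.42 with the compound, a 2.46-fold difference upward. Ptgr1 and Zadh2 encode reductases that act on 15-keto-prostaglandins, the oxidised breakdown products. Ptgr1 stood at 9.44 and 10.37, 1.90-fold higher, and Zadh2 at 8.03 and 9.09, 2.07-fold higher. Hpgd, the dehydrogenase that starts inactivation, was below the limit in both arrays (4.54 and 4.79), as were Ptgr2 (4.81 and 4.93), a further reductase of 15-keto-prostaglandins, and Akr1c18 (4.28 and 4.90), an aldo-keto reductase. Slco2a1, the prostaglandin uptake transporter, reached the limit with celastrol only (5.47 and 5.73). Ptgfrn, the prostaglandin F receptor negative regulator, was on this list though it neither exports nor inactivates prostaglandins. It was lower with celastrol (9.04 and 8.58, 1.37-fold). Of the 5 detected genes of the list 4 were higher, 2 of them at least 2-fold, beside 48.1% and 1.88% of all detected genes. The median of the 5 was 0.93, and it was 0.44 over all 8 measured genes with no detection limit.

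In arachidonate release and recycling, 20 of 24 measured genes were detected, and the median was 0.03. Of the 20, 12 had higher and 8 lower values, beside 48.1% and 51.9% of all detected genes. Those higher by 1.5-fold, as 6.19% of all detected genes were, were Acsl4, which activates arachidonate for re-esterification (10.15 and 10.83, 1.61-fold), Pla2g7, a platelet-activating factor hydrolase (6.08 and 6.74, 1.58-fold), and Pla2g4a. Those lower by 1.5-fold, as 4.68% of all detected genes were, were Pla2g15, a lysosomal phospholipase A2 (9.46 and 8.70, 1.69-fold), Lpcat3, which inserts arachidonate into phospholipids (10.56 and 9.90, 1.57-fold), and Daglb, a diacylglycerol lipase (8.82 and 8.23, 1.51-fold). Acsl4 and Lpcat3, which act in sequence in re-esterification, thus differed in opposite directions.

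The leukotriene and lipoxygenase list, the other branch of arachidonate metabolism, had 12 detected of 17 measured genes and a median of 0.16. Aloxe3, the epidermal-type lipoxygenase 3, stood at 6.18 and 7.54, 2.57-fold higher. Cysltr1, a leukotriene receptor, was detected with DMSO only (6.23 and 5.27), at least 1.42-fold lower with celastrol against the limit. All the others were within 1.5-fold, and Alox5, the 5-lipoxygenase, was at the limit (5.74 and 5.54).

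**Figure D3:**
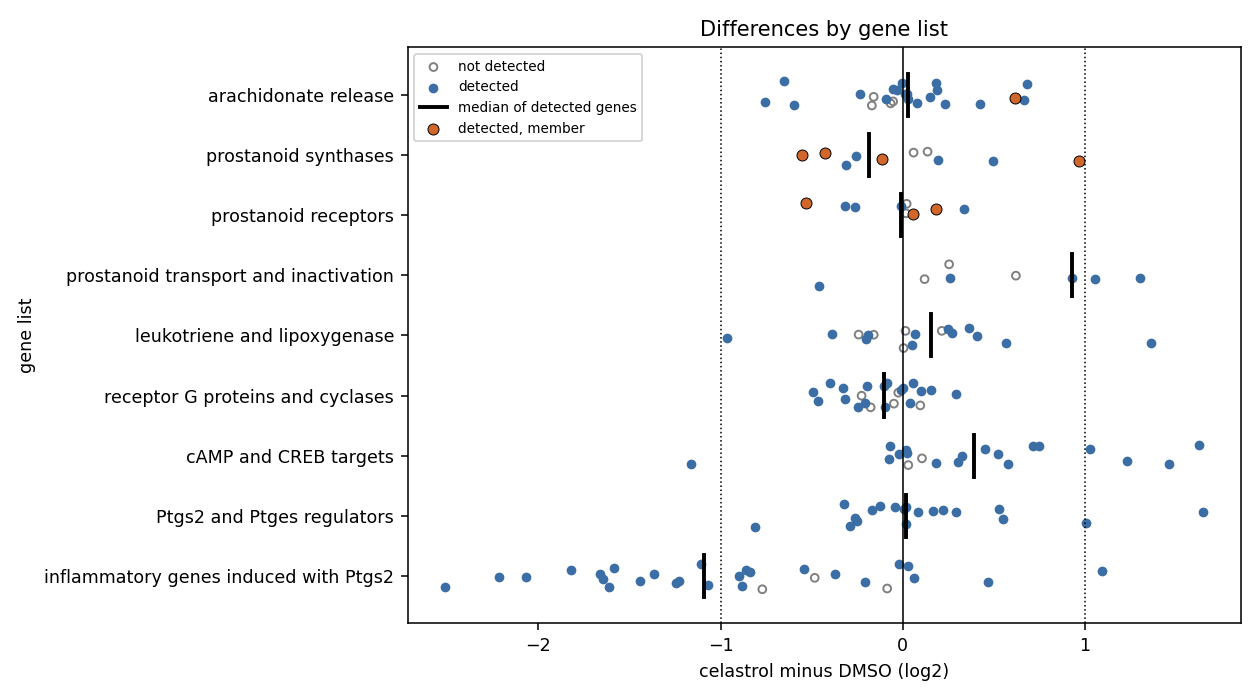
Difference (celastrol minus DMSO, log2, horizontal axis) of each measured gene in 9 lists (vertical axis), with members in orange, genes not detected as open circles, list medians of detected genes as bars, and dotted lines at 2-fold. The transport and inactivation list has its median at 0.93 (0.44 with no detection limit) and the inflammatory list at -1.09, while the synthase and receptor lists lie near 0.

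Downstream of the receptors, 18 of 23 measured genes for G proteins, adenylyl cyclases and cyclic AMP effectors were detected, and none passed 1.5-fold. At 1.5-fold, 6.19% of all detected genes were higher and 4.68% lower. Of these 18, 6 were higher and 12 lower, beside 48.1% and 51.9% of all detected genes, with a median of -0.10. The extremes were Gna11, a Gq family subunit, at -0.49 (10.69 and 10.19) and Creb1, the cyclic AMP responsive transcription factor, at 0.29 (9.68 and 9.97). Genes known to respond to cyclic AMP, many of which respond to growth factors and stress as well, had a median of 0.39. Of their 18 detected genes 14 were higher and 4 lower, beside 48.1% and 51.9% of all detected genes. This list too was chosen with earlier results of these data known, so its counts are no independent evidence. Cyclic AMP signalling itself was not tested. At least 2-fold higher values, found for 1.88% of all detected genes, were seen for 4 of the 18, namely Gem, a small GTPase (8.63 and 10.26, 3.09-fold), Ppargc1a, a transcriptional coactivator (2.75-fold), Fosl1, an AP-1 subunit (9.95 and 11.17, 2.34-fold), and Dusp1, a MAP kinase phosphatase (10.76 and 11.78, 2.04-fold). Sik1, a salt-inducible kinase and itself a CREB target, was 2.24-fold lower (10.12 and 8.96), the 1 gene of the list past 2-fold downward beside 0.662% of all detected genes.

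Factors reported to act on the Ptgs2 or Ptges gene or on their messenger RNA had a median of 0.02 over 19 detected genes. Of the 19, 11 were higher and 8 lower, beside 48.1% and 51.9% of all detected genes. A 2-fold higher value was reached by 2 of them, beside 1.88% of all detected genes. Egr1, a zinc finger factor known to activate Ptges, was 3.14-fold higher (8.09 and 9.74). Zfp36, tristetraprolin, which promotes decay of Ptgs2 messenger RNA, was 2.01-fold higher (7.27 and 8.28). Cebpd, a C/EBP factor that acts on the Ptgs2 promoter, was 1.76-fold lower (8.78 and 7.97). Cebpb, the other C/EBP factor of the list, differed the other way and was 1.46-fold higher (9.42 and 9.96). Whether these factors acted on Ptgs2 or Ptges in these cultures was not tested.

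Set beside other genes that interleukin 1, tumour necrosis factor or lipopolysaccharide induce with it, Ptgs2 differed in direction from most. That list had 26 detected genes and a median of -1.09. Lower values were found for 22 of them, and for 14 the gap reached 2-fold, beside 51.9% and 0.662% of all detected genes. Of these 14, Il6 (6.40 and 5.15) was below the limit with celastrol, at least 1.59-fold lower against it. Nos2, the inducible nitric oxide synthase, had the lowest difference at -2.51 (9.99 and 7.48), so that the differences of Ptgs2 and Nos2 lay 3.47 apart on the log2 scale. Steap4 (-2.22), a metalloreductase, Cxcl5 (-2.07), a chemokine, and Vcam1 (-1.82), an adhesion molecule, followed. Mmp13, a collagenase, was the one gene of the list at least 2-fold higher (8.81 and 9.90, 2.13-fold). Ptges, at -0.55, had the sign of the majority. This list overlaps inflammatory genes already known to be lower in these data, and its count is no independent evidence.

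**Figure D4:**
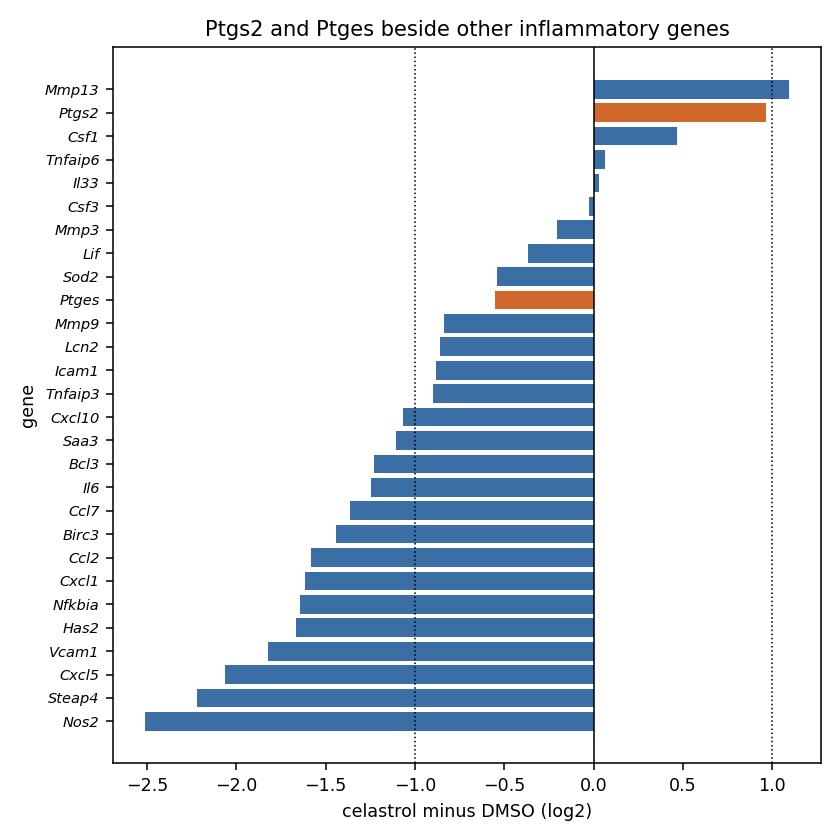
Difference (celastrol minus DMSO, log2, bars from 0) of 26 detected inflammatory genes (blue) with Ptgs2 and Ptges (orange) in order of size, 1 array per condition, and dotted lines at 2-fold. Ptgs2 at 0.96 stands second after Mmp13 at 1.09, and Ptges at -0.55 lies among the lower genes.

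Markers of other prostanoid-making cells were examined because arrays of a whole culture cannot tell a change in the number of such cells from a change in RNA per cell. Of 14 macrophage and leukocyte markers 7 were detected, and the summed linear level of all 14 was 822 with DMSO and 1122 with celastrol, mainly through Cd68 (6.86 and 8.33) and Cd14 (6.94 and 7.65), while Cx3cr1 stood at 6.83 and 6.65. Of the 7 detected markers 5 were higher and 2 lower, beside 48.1% and 51.9% of all detected genes. Csf1r (5.99 and 6.25) and C1qa (5.91 and 6.09) were among those higher. Ptprc (5.50 and 5.71), Adgre1, Itgam and Lyz2 were below the limit in both arrays. Of 11 mast cell and platelet markers 4 were detected, and the brightest was Ppbp, a chemokine gene (12.97 and 12.31), followed by Itga2b (6.77 and 6.89) and Gp9 (5.66 and 5.91), whereas Cpa3, Fcer1a and Pf4 were below the limit. Their summed linear level was 8454 with DMSO and 5519 with celastrol, and 429 and 458 without Ppbp, with 3 of the 4 detected markers higher. Endothelial markers summed to 644 and 655, with 6 of 10 detected, led by Egfl7 (7.22 and 7.05), Vwf (6.40 and 6.48) and Eng (6.26 and 6.38). Tie1 (6.19 and 6.22) was also detected, and Cdh5 (5.62 and 5.77) with celastrol only, while Pecam1 and Kdr were below the limit. Epithelial markers summed to 480 and 498, with 6 of 8 detected, led by Krt8 (6.96 and 6.92), Krt18 (6.19 and 6.20) and Cldn4 (5.90 and 5.85). Smooth muscle markers, which embryonic fibroblasts share, summed to 10442 and 8002, with Acta2 at 13.04 and 12.65, Smtn at 10.29 and 9.97 and Tagln at 8.16 and 7.20. Of these 8 markers, all detected, 4 were lower, among them Acta2, Smtn and Tagln, and 4 were higher, from Synpo2 at 0.12 to Des at 0.32, with a median of -0.10. Without Acta2 they summed to 2039 and 1554. Ptgis, which smooth muscle cells also express, was lower as well, and the part of these markers in that result was not tested.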

How the data were processed

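Per the labels' protocols, total RNA was extracted with Trizol, column-purified and labelled with biotin by Affymetrix whole-transcript kits. The deposited log2 values were made by the authors with RMA (background correction, quantile normalization and a summary per probe set), per the submitters' processing notes. Sources used here give neither its version nor which arrays were normalized together, and the log2 base was taken from the range of the values (2.73 to 14.5).

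Of 35556 probe sets, 21797 name 1 gene in the platform annotation, and the other 13759 were not used. Symbols were updated through Entrez identifiers, found for 21706. A gene took its probe set with the highest mean. No test was possible with 1 array per group, so counts past a fold of 1.5 or 2 and medians stand beside those of all detected genes. A gene detected in 1 array only has its fold given against the limit. Counting was tested on simulated data.

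Members and lists were chosen with earlier results of these data known. Named were all members, every measured gene of the synthase, receptor, and transport and inactivation lists, in other lists the extremes and up to 4 genes per direction past 1.5-fold, and the 3 brightest markers of each cell type. Also named, after their values were seen, were Alox5, Cebpb, Il6, Pdc, neighbours on chromosome 1 and markers below the limit or outside the 3 brightest. Alternatives were other detection limits, the mean of probe sets, quantile normalization, a lowess trend (fraction 0.3) or the median subtracted, and folds of 1.5 and 3. Software was statsmodels 0.14.6, pandas 2.3.3 and numpy 2.4.6 under Python 3.11.15, with matplotlib 3.10.9.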

Additional observations from a re-analysis of the deposited data

How the results depend on the processing

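No paired analysis was possible because each group has 1 array. With no replicates, a difference or median was counted as unmoved when it shifted by less than 0.21 on the log2 scale, the SD of the differences of the receptor probe sets. Of 114 recalculated differences and medians 113 were unmoved, and the exception was the median of the transport and inactivation list, 0.44 with no detection limit. Part of this was fixed in advance. A detection limit does not enter the difference of a single gene. Each measured member had 1 probe set, so the mean of probe sets could not change it either. Subtracting the median shifts all genes equally. Only quantile normalization and the lowess trend could move members unequally. RMA already includes quantile normalization, so repeating that step could change little. The 0.21 allowed is also larger than the whole difference of Ptger1, Ptger2, Ptger4 or Ptges2, so being unmoved says little for these genes. No member's difference shifted by more than 0.06. Ptgs2 lay between 0.96 and 0.99, Pla2g4a between 0.62 and 0.65, Ptges between -0.56 and -0.54 and Ptgfr between -0.53 and -0.52. The median of the detected members changed sign, between -0.03 and 0.02, and that of the receptor list between -0.01 and 0.02. Some list medians counted as unmoved still depended on the detection limit. That of the synthase list ran from -0.21 to -0.03, and that of the leukotriene list from 0.05 to 0.33. Counts moved by construction with the fold. At 1.5-fold, 2 members were higher, as were 3 arachidonate release genes and 1 synthase, and 3 arachidonate release genes, 1 leukotriene gene and 1 regulator were lower. The leukotriene gene is Cysltr1, which passes on its measured difference only, since against the limit it is at least 1.42-fold lower. Smaller moves, to at most 1.5 times the count at 2-fold, were those to 3 transport genes and 6 cyclic AMP targets higher and 18 inflammatory genes lower. At 3-fold, 0 transport and 0 leukotriene genes, 1 cyclic AMP target, 1 regulator and 0 inflammatory genes were higher, and 0 cyclic AMP targets and 7 inflammatory genes were lower. The share of all detected genes past 3-fold was not counted, so these counts have no background beside them. The number of arrays limits the precision, and Ptger1, Ptges and Ptgfr lay within 1.28 of the detection limit on the log2 scale.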
